A study of Mus musculus with 6 samples.

Results

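The unannotated transcribed loci are the rows of the deposited count table whose identifier carries the prefix given to assembled transcripts outside the annotation, that is, stretches of the mouse genome that were assembled as transcripts but belong to no gene of the annotation used for counting. There were 392 such loci among 54924 rows, and each is called here by the number in its identifier (locus 160 and so on). They were measured in 6 RNA libraries of C2C12 myotubes, 3 from cultures given 25 μM kaempferol, a plant flavonol, for 24 h and 3 from control cultures without kaempferol. C2C12 is a single mouse myoblast line, and both groups had been differentiated for 6 days in horse serum and reseeded overnight. A treatment tag that reads dedifferentiation is carried by both groups, and the kaempferol labels spell the line C2C13. Whether replicate libraries stem from separate cultures is not stated, and the p-values rest on their spread alone, which may be technical. RNA was selected by its poly(A) tail, so transcripts without one are not represented.

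A mammalian genome is transcribed well beyond its annotated genes. Among the best known sources of such RNA are transposable elements. LINE-1 elements copy themselves through an RNA with 2 reading frames, ORF1 for an RNA-binding protein and ORF2 for a reverse transcriptase and endonuclease. Endogenous retroviruses keep remnants of the gag, pol and env genes, which encode the particle core, the enzymes and the envelope, and intracisternal A-particles (IAP) are a family that is still mobile in mice. Other unannotated RNA arises as antisense or divergent transcription from promoters, as extensions of known genes, and as long noncoding RNA.

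Library totals were 17242977, 16575790 and 18625272 counts for kaempferol and 17500628, 18105856 and 16869364 counts for control. In CPM, counts scaled to the library total, 6 of 8 myotube markers (Myog, Myh3, Acta1, Tnnt3, Ttn and Mymk) were above 10 in all 6 libraries, Ckm averaged 3.84 with kaempferol and 4.66 in control, and Myh8 was below 1. Of the 7 that could be tested 2 rose with kaempferol. Myog averaged 40.5 CPM with kaempferol and 33.1 CPM in control (log2 fold change 0.29, edgeR adjusted p = 0.0143). Acta1 averaged 231 CPM with kaempferol and 194 CPM in control (0.26, edgeR adjusted p = 0.00703). The other 5 did not pass the test, and their log2 fold changes were all below 0, from −0.28 for Ckm to −0.0023 for Myh3. Summed, the 8 ran from 555 to 588 CPM with kaempferol and from 536 to 616 CPM in control. Of the 3 myoblast markers Myod1 was lower (49.7 CPM with kaempferol and 58.0 CPM in control, −0.22, edgeR adjusted p = 0.016), and Pax7 and Myf5 did not pass the test. Their sum was 65.4 to 69.5 CPM with kaempferol and 74.7 to 79.9 CPM in control. Of 5 markers of other cell types, Epcam and Adipoq were at 0, Ptprc and Pecam1 below 1 CPM, and Cd68, a macrophage marker, averaged 1.79 CPM with kaempferol and 1.67 CPM in control. Both markers of dividing cells were lower. Mki67 averaged 393 CPM with kaempferol and 665 CPM in control (−0.76, edgeR adjusted p = 2.79e-08), and Top2a averaged 586 CPM with kaempferol and 737 CPM in control (−0.33, edgeR adjusted p = 2.75e-05). Some markers of myotubes and of myoblasts, and both of dividing cells, thus moved in the same libraries as the loci. Their part in any result on the loci was not tested. In such bulk RNA, fewer cells that transcribe a locus and less RNA per cell cannot be told apart.

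The sequences of the loci themselves were not analysed here. RefSeq places an annotated start within 300 bases of the assembled start, on the same strand, for 27 of them. Of these 18 could be tested and 3 changed with kaempferol, while 24% of all tested rows did. Of the 3 that changed, the 300-base windows of locus 160 and locus 373 are shown (250 bases before to 50 after the RefSeq start, GRCm38.p6, 5′ to 3′). The third, the IAP locus 211, was left out. These windows were chosen after the values were seen. Capitals mark the bases inside the assembled locus.
locus 160, RefSeq D17H6S56E-5, chr17:35000697-35000996, minus strand: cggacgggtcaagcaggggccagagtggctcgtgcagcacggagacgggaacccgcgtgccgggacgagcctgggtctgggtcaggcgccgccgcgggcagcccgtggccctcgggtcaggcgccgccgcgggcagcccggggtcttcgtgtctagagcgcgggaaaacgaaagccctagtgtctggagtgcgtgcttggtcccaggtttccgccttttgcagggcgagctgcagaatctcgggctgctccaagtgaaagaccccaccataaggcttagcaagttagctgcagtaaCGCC
locus 373, RefSeq Gm38561, chrX:163958491-163958790, plus strand: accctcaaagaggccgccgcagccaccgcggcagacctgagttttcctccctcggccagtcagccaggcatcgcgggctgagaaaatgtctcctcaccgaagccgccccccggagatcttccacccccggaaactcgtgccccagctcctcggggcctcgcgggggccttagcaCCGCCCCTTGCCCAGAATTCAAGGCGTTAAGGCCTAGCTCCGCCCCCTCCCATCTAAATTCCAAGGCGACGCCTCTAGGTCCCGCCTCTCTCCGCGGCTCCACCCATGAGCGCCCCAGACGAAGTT

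The first window is 67% G and C, has only 4 bases inside the locus, and holds the letters GCGTG, the core of the dioxin response element, at 2 positions on its own strand. The second is 66% G and C, has 126 bases inside the locus, and lacks these letters on either strand. Over the 27 windows, searched on both strands, GCGTG occurred in 8 (29.6%), against 32.4% of the 32851 RefSeq windows of the same length. The antioxidant response element core TGACNNNGC occurred in 4 (14.8%), against 12.4%, and the E-box CAGCTG in 4 (14.8%), against 16.3%. A match says only that these letters stand in the window.

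The 392 loci lay on 21 chromosomes and on 1 unplaced scaffold, with 205 on the plus and 187 on the minus strand. Chromosome 2 held the most, 27, and chromosome Y the fewest, 8. Transcript length ran from 200 to 16255 bases with a median of 885. For 262 loci the transcript was shorter than its span on the genome, as for spliced RNA, and 130 were single exons. Of the 392, 289 had counts in all 6 libraries and 16 had none in any.

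After edgeR's filter on low counts, 200 loci (51.0%) could be tested, against 26.3% of the annotated rows. The processing notes name StringTie, which assembles transcripts from reads, so the loci had been chosen for being transcribed. The 192 loci below the filter had a median of 18 counts summed over 6 libraries, and all of them together held 2.35% of the counts in the loci. Of the 200, 147 reached the filter's level in all 6 libraries, 3 (locus 154, locus 290 and locus 349) did so in the kaempferol libraries and in no control library, and 0 the other way round. A tested locus had a median of 2.05 CPM, against 26.8 CPM over all 14558 tested rows. In RPKM, the CPM per kilobase of transcript, the loci had a median level of 1.19, above tested lincRNA (0.941) and antisense genes (0.790) and below processed pseudogenes (4.00) and protein-coding genes (7.47).

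With kaempferol 22 loci were higher, 18 were lower and 160 did not pass the test (edgeR's quasi-likelihood test, adjusted p under 0.05 over all 14558 tested rows). That is 20% of the tested loci, while over all tested rows 24% were called, 11.3% higher and 12.6% lower. Taken over all levels, the share of loci called was thus near the background, and shares at like level are given below. It was above that of annotated lincRNA (10.5%, 20 higher and 18 lower of 362) and of antisense genes (5.38%, 9 higher and 8 lower of 316). Those rows had lower median levels, 1.40 and 1.14 CPM, and were not matched for level. An at least 2-fold rise was called for 5 of the 200 loci, against 1.37% of all rows. An at least 2-fold fall was called for 10 of the 200, against 0.495% of all rows. These shares were not compared at equal level, so no excess is read from them. All 5 rises and the falls of loci 122, 196 and 243 passed the filter through the group where they were high. Loci 81 and 90, both among the falls, overlap and are 1 region. The groups did not overlap for 39 loci that stood above control and 29 that stood below, where 18.6% and 19.6% of all rows did. The median log2 fold change was 0.13 over the tested loci and −0.00047 over all tested rows.

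Calls were more frequent among the better counted loci. Of the 29 tested loci with at least 10 CPM 17 were called (58.6%), against 30.5% of the 9722 annotated rows at that level. Between 1 and 10 CPM it was 18 of 124 loci (14.5%), against 12.1% of annotated rows, and under 1 CPM 5 of 47 (10.6%), against 6.05%. Spliced and single-exon loci were called about as often, 29 of 141 and 11 of 59. In the plot of fold change against level, the 5 called loci under 1 CPM all changed more than 2-fold, while at higher levels changes as small as −0.21 were called.

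**Figure D1:**
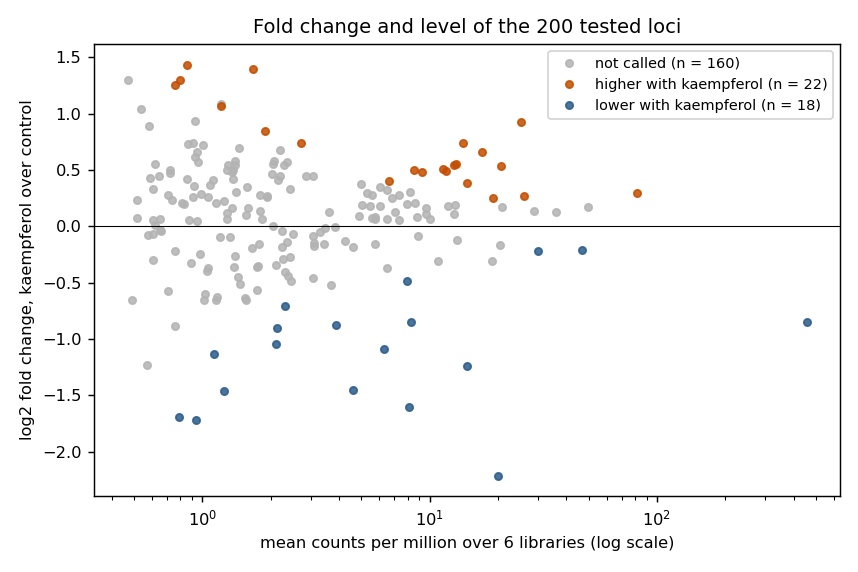
Fold change (log2, kaempferol over control) of the 200 tested loci against their mean level in CPM on a log axis, 1 point per locus; 22 higher loci are orange, 18 lower ones blue and 160 others grey. Changes reached 1.44 upward and −2.21 downward, and locus 160 stands alone at the far right.

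In all, the loci held 0.144%, 0.148% and 0.150% of the counts of the kaempferol libraries and 0.165%, 0.166% and 0.164% of those of the control libraries. The difference turned on 1 locus. Without locus 160 the share was 0.112%, 0.115% and 0.117% with kaempferol and 0.108%, 0.108% and 0.106% in control, higher in all 3 kaempferol libraries.

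This most abundant locus, locus 160 (chr17:34996671-35000700, minus strand, spliced, 3333 bases), resembles an envelope glycoprotein with a p15E subunit. It had 5608, 5396 and 6184 counts with kaempferol and 10065, 10616 and 9670 counts in control. All 3 kaempferol libraries were far below all 3 controls. In CPM the level was 325 ± 3.52 with kaempferol and 585 ± 5.12 in control (SD, n = 3 each), a log2 fold change of −0.85 ± 0.041 (SE, edgeR adjusted p = 4.21e-11). The locus made up 22.6%, 22% and 22.1% of all counts in the loci with kaempferol and 34.8%, 35.3% and 35.1% in control. Its level of 136 RPKM was the highest of the 200. RefSeq has a protein-coding gene at this place, D17H6S56E-5, also called G7e. Locus 160 lies back to back with Vars, which encodes the valyl-tRNA synthetase, at 287 bases on the other strand. Vars was also lower, with a log2 fold change of −0.27 (edgeR adjusted p = 0.00035).

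The steepest fall was at locus 81 (chr13:21812443-21814516, plus strand, spliced, 1216 bases), whose text names a retroviral Gag polyprotein with the p30 core shell domain. It had 121, 115 and 138 counts with kaempferol and 573, 543 and 579 in control. The groups were far apart, at 7.06 ± 0.242 CPM with kaempferol and 32.7 ± 2.35 CPM in control (SD, n = 3 each). The log2 fold change was −2.21 ± 0.095 (SE, edgeR adjusted p = 8.74e-12), and at 16.4 RPKM it was the third in level per length. On the opposite strand over the whole of it runs locus 90, a spliced transcript of 1432 bases for which no protein was named. It had 71, 77 and 64 counts with kaempferol and 215, 214 and 205 in control, a log2 fold change of −1.60 ± 0.137 (SE, edgeR adjusted p = 1.21e-07). Both lie in a cluster of histone genes. The nearest row is Hist1h4m, a histone H4 gene, at 296 bases from locus 81 and 1 base from locus 90, with 1, 0 and 0 counts with kaempferol and 1, 0 and 1 in control, and RefSeq lists the same gene as H4c17. The setting of strand in counting is not given in the sources used here, so reads of locus 81 and locus 90 cannot be told apart with certainty, and the pair is 1 region rather than 2 independent observations.

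A second Gag-type locus fell as well. At locus 307 (chr6:73287734-73293660, minus strand), which also has the p30 domain, there were 32, 50 and 48 counts with kaempferol and 114, 115 and 121 in control, with no overlap. The log2 fold change was −1.46 ± 0.188 (SE, edgeR adjusted p = 1.76e-05). RefSeq knows it as Gm40378. Its nearest row, Suclg1, a subunit of succinyl-CoA ligase 10823 bases away, had a log2 fold change of 0.10 (edgeR adjusted p = 0.17). Of 4 loci with the p30 domain 3 were tested and 2 were lower, where 12.6% of all tested rows were lower.

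At locus 261 (chr4:15236491-15242270, minus strand), similar to a retroviral Pol polyprotein, the 162, 153 and 144 counts with kaempferol stood against 340, 394 and 332 in control. This was 8.71 ± 0.915 CPM with kaempferol and 20.5 ± 1.23 CPM in control (SD, n = 3 each), a log2 fold change of −1.24 ± 0.105 (SE, edgeR adjusted p = 1.13e-07). The next gene, Tmem64, at 23561 bases, gave −0.05 (edgeR adjusted p = 0.51).

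**Figure D2:**
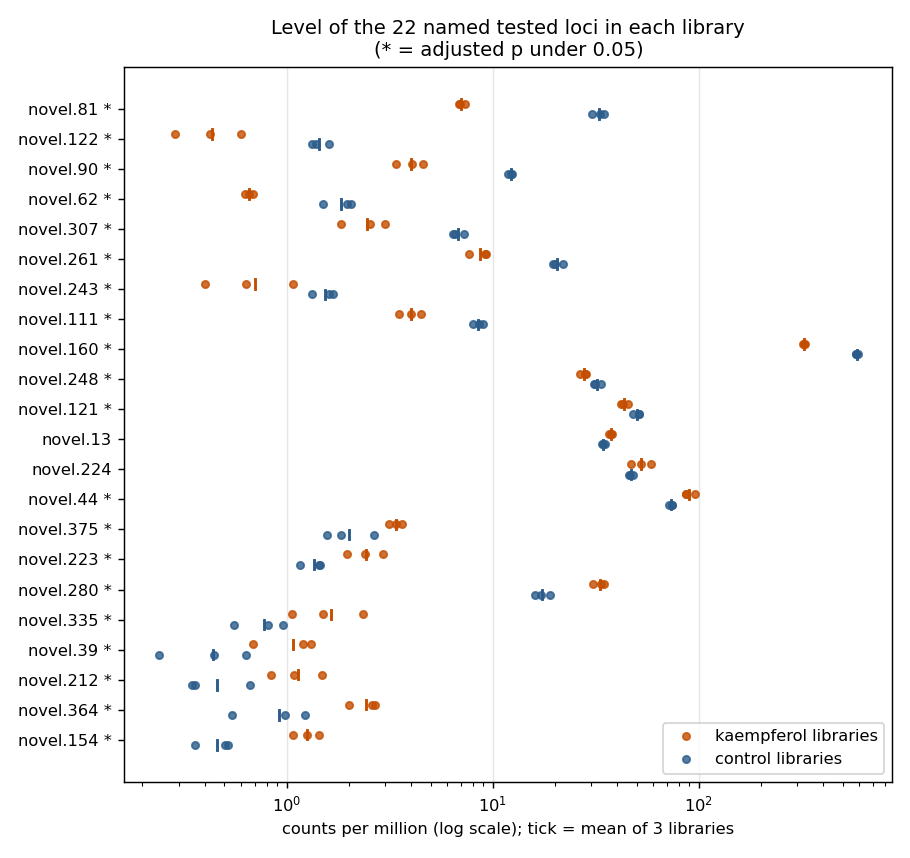
Level in each library of 22 loci chosen by size of change or abundance, in CPM on a log axis, from the steepest fall at the top to the steepest rise at the bottom; points are libraries, kaempferol (orange) above control (blue), and ticks are means of 3. The axis gives the deposited identifiers, which hold the locus numbers. The groups do not overlap except at locus 224, and asterisks mark an adjusted p under 0.05, which locus 13 and locus 224 did not reach.

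Falls at loci with few counts were less exact. The ORF2-type LINE-1 locus 122 had 5, 10 and 8 counts with kaempferol and 24, 29 and 22 in control (log2 fold change −1.71 ± 0.377, SE, edgeR adjusted p = 0.0028). At locus 62, for which no protein was named, there were 11, 11 and 13 counts with kaempferol and 34, 27 and 34 in control (−1.46 ± 0.321, SE, edgeR adjusted p = 0.00276). The neighbouring locus 63, at only 66 bases, had 20, 25 and 19 counts with kaempferol and 41, 32 and 26 in control and did not pass the test (edgeR adjusted p = 0.13). Whether they are segments of 1 transcript or separate transcripts cannot be told apart here.

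The spliced locus 111 on chromosome 15, with 61, 67 and 85 counts with kaempferol and 155, 154 and 134 in control, was lower, with a log2 fold change of −1.09 ± 0.148 (SE, edgeR adjusted p = 3.31e-05). It lies 11100 bases upstream of Fer1l6, a ferlin family gene with at most 11 counts in any library. Locus 243 on chromosome 3 had 7, 18 and 12 counts with kaempferol and 23, 29 and 28 in control (−1.13 ± 0.364, SE, edgeR adjusted p = 0.0313), and it missed the threshold in DESeq2 (adjusted p = 0.0543) and when any library but kaempferol 2 was left out.

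Loci 291 and 305 lie 117826 bases apart in the T-cell receptor beta region of chromosome 6, beside the variable segments Trbv21 and Trbv6. At the Pol-type locus 291 there were 44, 31 and 71 counts with kaempferol and 95, 97 and 69 in control (−0.87 ± 0.227, SE, edgeR adjusted p = 0.00954). At locus 305 there were 106, 108 and 96 counts with kaempferol and 228, 168 and 154 in control (−0.85 ± 0.156, SE, edgeR adjusted p = 0.000592). The Trbv6 row itself gave −0.36 (edgeR adjusted p = 0.49). These 2 loci were singled out after their values were seen, as was locus 196, the only called locus whose groups overlap. That Pol-type locus had 2, 4 and 14 counts with kaempferol and 20, 32 and 12 in control (−1.69 ± 0.517, SE, edgeR adjusted p = 0.024).

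Of the rises the best measured was locus 280 (chr5:24259707-24286432, minus strand), a spliced transcript of 11817 bases with no protein named. It had 535, 563 and 653 counts with kaempferol and 328, 288 and 285 in control, with a wide gap between the groups. The level was 33.1 ± 2.07 CPM with kaempferol and 17.4 ± 1.47 CPM in control (SD, n = 3 each), a log2 fold change of 0.93 ± 0.085 (SE, edgeR adjusted p = 2.9e-07). Its nearest row, the pseudogene Gm9836, had 7 to 9 counts with kaempferol and 12 to 15 in control.

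The rises over 2-fold all stood on few counts. At locus 154 on chromosome 17 there were 22, 18 and 27 counts with kaempferol and 9, 9 and 6 in control (1.44 ± 0.373, SE, edgeR adjusted p = 0.00913). This locus reached the filter's level of 0.576 CPM only in the kaempferol libraries, so it entered the test through the group where it was high. Fitted with no filter on low counts its edgeR adjusted p was 0.00939. The other 2 loci that reached this level in no control library were not called. Loci 364, 212, 39 and 335 among the higher and loci 122, 196 and 243 among the lower reached it in only part of their lower group. They too passed the filter through the group where they were high. Fitted with no filter on low counts, these loci were still called. At locus 364 on the scaffold JH584304.1 there were 35, 45 and 49 counts with kaempferol and 17, 22 and 9 in control (1.39 ± 0.311, SE, edgeR adjusted p = 0.00318). This locus lies inside locus 363 on the same strand, whose text names the SFI1 homolog, a centrosome protein, and which had 156, 178 and 144 counts with kaempferol and 142, 138 and 102 in control (edgeR adjusted p = 0.16). The nearest annotated row, AC149090.1, gave 0.03 (edgeR adjusted p = 0.7).

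At locus 212, 43506 bases from the potassium channel gene Kcna4, there were 19, 14 and 28 counts with kaempferol and 6, 12 and 6 in control (1.3 ± 0.412, SE, edgeR adjusted p = 0.0288). Kcna4 itself gave 0.86 (edgeR adjusted p = 0.0545). At locus 39, which ends 71 bases before the actin-binding gene Dbnl, there were 21, 22 and 13 counts with kaempferol and 11, 8 and 4 in control (1.25 ± 0.435, SE, edgeR adjusted p = 0.045), while Dbnl gave −0.02 (edgeR adjusted p = 0.78). At locus 335, 3602 bases past the end of Nrg1, the gene of neuregulin, there were 41, 25 and 20 counts with kaempferol and 14, 10 and 16 in control (1.07 ± 0.37, SE, edgeR adjusted p = 0.0432), and Nrg1 gave 0.08 (edgeR adjusted p = 0.39).

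Of the 40 calls DESeq2 did not make 9, those of loci 212, 39, 335, 223, 170 and 195 among the higher and 243, 248 and 108 among the lower. Locus 223 had 51, 33 and 45 counts with kaempferol and 25, 21 and 24 in control (log2 fold change 0.85). The calls of loci 212, 39, 335 and 223 were also lost when certain single libraries were left out, from 4 of the 6 for locus 212 and locus 39 to 5 of the 6 for locus 335 and locus 223. The envelope-type locus 375, with 59, 61 and 59 counts with kaempferol and 46, 33 and 26 in control, was higher, with a log2 fold change of 0.74 ± 0.236 (SE, edgeR adjusted p = 0.0295) and lost the call without kaempferol 1 or 2 or control 2 or 3. It lies 9783 bases from Dynlt3, a dynein light chain gene, which rose as well (0.32, edgeR adjusted p = 0.00015).

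The loci were grouped by the protein named in the deposited description, which gives the best match in SwissProt and any Pfam domain. These groups were drawn up after the values had been seen, and no group was tested as a whole. A retroviral or LINE-1 protein was named for 75 of the 392 loci, another protein for 19, and none for 298. Copies of such elements are near identical, and how reads that fit several copies were counted is not given in the sources used here, so the counts of any 1 copy are uncertain.

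Of 24 IAP loci 22 were tested, of which 6 rose and 0 fell with kaempferol, against the 11.3% and 12.6% of all rows given above. Of the 16 that did not pass the test, fold changes of both signs were found, and 17 of the 22 were above 0. The median log2 fold change was 0.27, and the range −0.56 to 0.54. Summed over the 24 loci, the level was 223, 232 and 231 CPM with kaempferol and 186, 182 and 186 CPM in control. All 3 kaempferol libraries stood above all 3 control libraries. DESeq2 called 6 as well, and leaving out kaempferol 2 left 4. For 22 of the 24 IAP loci the best match is the same envelope glycoprotein entry. Of those 22 loci 20 were tested and 4 rose.

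The most counted IAP locus was locus 44 (chr11:31545773-31549654, plus strand, spliced, 1883 bases), with an envelope text and 43.5 RPKM, second in level per length. It had 1679, 1457 and 1643 counts with kaempferol and 1293, 1290 and 1228 in control. The level was 90.4 ± 5.29 CPM with kaempferol and 73.5 ± 1.51 CPM in control (SD, n = 3 each), a log2 fold change of 0.30 ± 0.053 (SE, edgeR adjusted p = 0.000506). The nearest annotated gene is Bod1, a gene of chromosome orientation in mitosis, at 115527 bases (0.11, edgeR adjusted p = 0.21).

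The other 5 IAP loci that were higher had smaller counts and larger changes. The single-exon locus 87, of 8297 bases and with domains of Gag, reverse transcriptase and integrase, had 338, 428 and 533 counts with kaempferol and 273, 307 and 296 in control (0.54 ± 0.115, SE, edgeR adjusted p = 0.00226). A locus of the same make, locus 191 with 8753 bases, had 255, 288 and 328 counts with kaempferol and 213, 211 and 230 in control (0.38 ± 0.105, SE, edgeR adjusted p = 0.0134). The domains named for each run from Gag to integrase within 1 exon. The envelope-type loci 211, 321 and 12 rose by 0.50, 0.49 and 0.48 (edgeR adjusted p = 0.0089, 0.00507 and 0.0151), without overlap between the groups.

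**Figure D3:**
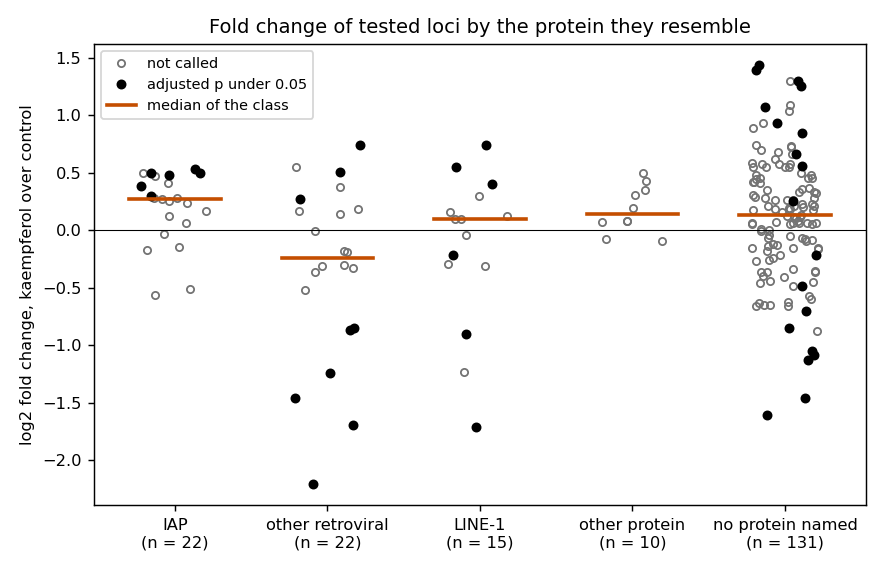
Log2 fold change (kaempferol over control) of the 200 tested loci by the protein named for them, 1 point per locus, filled where the adjusted p was under 0.05, with orange lines at the class medians. IAP loci have 6 filled points, all above 0, and the other retroviral loci 3 above and 6 below.

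The other retroviral loci, 31 in number, went both ways. Among 22 tested there were 3 rises, 6 falls and 13 that did not pass. The median log2 fold change was −0.25, and 8 of the 22 were above 0. Over all tested rows 11.3% rose and 12.6% fell. The lower ones were locus 81, locus 196, locus 307, locus 261, locus 291 and locus 160, and the higher ones locus 375, locus 268 and locus 225. At the Gag-type locus 268 there were 224, 219 and 268 counts with kaempferol and 165, 171 and 154 in control (0.51 ± 0.105, SE, edgeR adjusted p = 0.0018), and at the Pol-type locus 225 there were 482, 443 and 577 counts with kaempferol and 434, 420 and 365 in control (0.27 ± 0.082, SE, edgeR adjusted p = 0.0234). Without control 2 or control 3 only locus 268 was still called higher. The call of locus 225 was lost without kaempferol 3 as well, that of locus 291 without kaempferol 2, and that of locus 196 without kaempferol 1 or 2 or control 1 or 2.

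Summed, the class had 477, 487 and 498 CPM with kaempferol and 780, 791 and 775 CPM in control, most of it locus 160. Without that locus it had 155, 164 and 170 CPM with kaempferol and 198, 200 and 192 CPM in control, which was still lower. The remaining gap lay mostly at locus 81 and locus 261, whose levels are given above. The lower sum therefore rests mostly on a few loci, and the class was not tested as a whole. Among the 7 loci whose text names the p15E, p30 or Pr180 chains, 6 were tested, 3 were lower (locus 81, locus 307 and locus 160) and 1 was higher (locus 375). The shares over all tested rows were 12.6% lower and 11.3% higher.

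**Figure D4:**
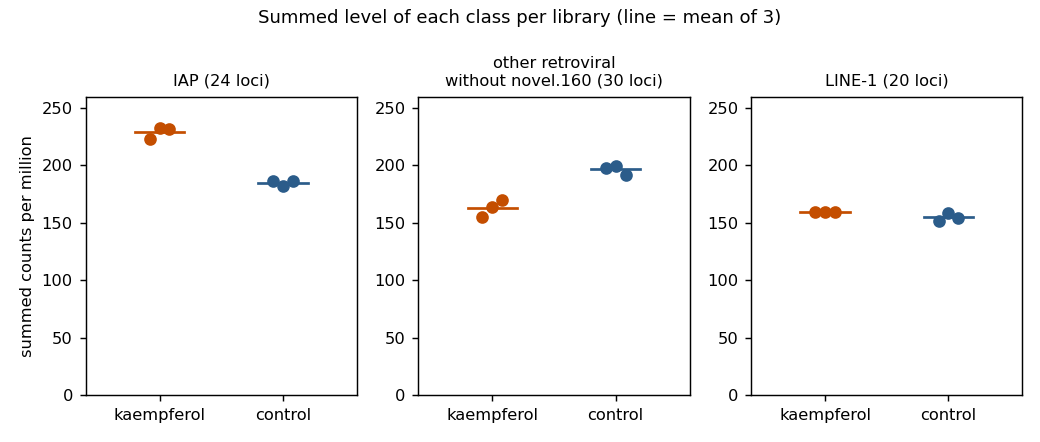
Summed level in CPM of the loci of 3 classes in each library, kaempferol left and control right, with lines at the mean of 3 libraries; axes start at 0. The IAP loci stand higher with kaempferol (223 to 232 CPM) than in control (182 to 186 CPM), the other retroviral loci without locus 160 lower, and the LINE-1 loci nearly level.

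The 20 LINE-1 loci did not move together. Of 15 tested 3 rose, 3 fell and 9 did not pass, where 11.3% of all tested rows rose and 12.6% fell. The sums were 160, 160 and 159 CPM with kaempferol and 152, 159 and 154 CPM in control. The ORF2-type locus 379 on chromosome X had 311, 306 and 306 counts with kaempferol and 191, 196 and 157 in control (0.74 ± 0.103, SE, edgeR adjusted p = 4.1e-05). The ORF1-type locus 373, whose start is printed above, had 264, 247 and 295 counts with kaempferol and 163, 232 and 146 in control (0.55 ± 0.126, SE, edgeR adjusted p = 0.00401). It begins 4 bases from Zrsr2, a splicing factor gene on the other strand, which gave −0.02 (edgeR adjusted p = 0.87). The third rise was locus 195 (0.40, edgeR adjusted p = 0.0469), a call that was lost in DESeq2 and on leaving out any library but kaempferol 2.

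Against these stood the falls of locus 122, locus 149 and locus 121. At locus 149 there were 35, 23 and 20 counts with kaempferol and 44, 57 and 43 in control (−0.90 ± 0.27, SE, edgeR adjusted p = 0.0209). The most counted LINE-1 locus, numbered 121, was lower by a small margin, at 43.5 ± 1.98 CPM with kaempferol and 50.4 ± 1.84 CPM in control (SD, n = 3 each, log2 fold change −0.21 ± 0.064, SE, edgeR adjusted p = 0.0222), and lost the call without kaempferol 1 or 3 or control 2 or 3. Its nearest row, Slc1a3, is 89549 bases away. The next in level, locus 13, had 37.5 ± 0.792 CPM with kaempferol and 34.4 ± 0.605 CPM in control (SD, n = 3 each) and did not pass the test (0.12, edgeR adjusted p = 0.19). Without control 2 only 1 LINE-1 locus was lower.

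The 19 loci that resemble other proteins included copies of zinc finger genes, NEDD4, TLC domain proteins and calmodulin. Of 10 tested 0 passed the edgeR test in either direction, where 24% of all tested rows passed. The fold changes ran from −0.10 to 0.50. The 298 loci with no protein named were shorter, with a median of 627 bases, and closer to genes, with 106 of them within 1000 bases of one. Of 131 tested 10 were higher and 9 lower, 14.5% in all, against 24% of all tested rows. DESeq2 called 5 of this class higher, 6 were higher without kaempferol 1 or without control 1, and 5 were lower without kaempferol 1.

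In this class the well counted locus 224 (chr2:84586925-84597640, minus strand, 10551 bases) had 817, 877 and 1105 counts with kaempferol and 796, 838 and 794 in control, with overlapping groups (0.17, edgeR adjusted p = 0.1). Without kaempferol 1 it passed the test, at 0.25. It begins 2431 bases past the end of Ctnnd1, the gene of p120-catenin, on its strand, and RefSeq counts this stretch as Ctnnd1. Ctnnd1 gave 0.03 (edgeR adjusted p = 0.78). At locus 248 the level was 27.7 ± 1.03 CPM with kaempferol and 32.1 ± 1.36 CPM in control (SD, n = 3 each), a log2 fold change of −0.21 ± 0.072 (SE, edgeR adjusted p = 0.0395), and the pseudogene Gm11847 at 1002 bases on its strand fell as well (−0.70, edgeR adjusted p = 3.9e-05). The call of locus 248 was lost in DESeq2 (adjusted p = 0.0772) and in 8 other alternatives.

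Loci without protein text that rose from a firm base of counts were locus 146 and locus 113, both over 50000 bases from any gene. At locus 146 (9074 bases) there were 333, 339 and 435 counts with kaempferol and 229, 249 and 207 in control (0.66 ± 0.098, SE, edgeR adjusted p = 7.32e-05). At locus 113 there were 245, 277 and 299 counts with kaempferol and 188, 190 and 169 in control (0.56 ± 0.104, SE, edgeR adjusted p = 0.000692). Both were picked after their values were seen.

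The nearest annotated gene was at a median of 5136 bases and at most 663077. Of the 392 loci 3 overlapped a gene of the table, 119 lay within 1000 bases, 72 at up to 5000, 157 at up to 50000 and 41 farther. Within 1000 bases, the most frequent arrangement was upstream on the same strand (57 loci), followed by upstream on the opposite strand (38). Downstream there were 17 on the opposite strand and 7 on the same. The share of tested loci called was 12.3% within 1000 bases, 17.6% from there to 5000 and 23.3% from there to 50000. Beyond that it was 36.0%, with 8 higher and 1 lower. Over all tested rows 24% were called, 11.3% higher and 12.6% lower. The share called also rose with level, and the distances were not compared at equal level.

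For 101 tested loci the nearest gene was tested too. Across the 51 pairs at 1 to 1000 bases the correlation of the 2 log2 fold changes was weak (Pearson r = 0.17, Spearman rho = 0.20), and 23 of the 51 pairs had the same sign. From there to 5000 bases r was 0.15 and rho 0.19 over 21 pairs, 10 of them with the same sign. From there to 50000 bases r was 0.17 and rho 0.33 over 23 pairs, and 16 of the 23 had the same sign, as had the 3 pairs farther apart. These values are across loci, which are not replicates and share their libraries. Both members of a pair passed the test in 5 cases. Locus and gene moved the same way at locus 160 and Vars, locus 248 and Gm11847, locus 121 and Slc1a3 (a glutamate transporter gene, −0.26), and locus 375 and Dynlt3. They moved apart at locus 108, which fell by 0.70 on the log2 scale, and Tsc22d1, which gave 0.30.

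**Figure D5:**
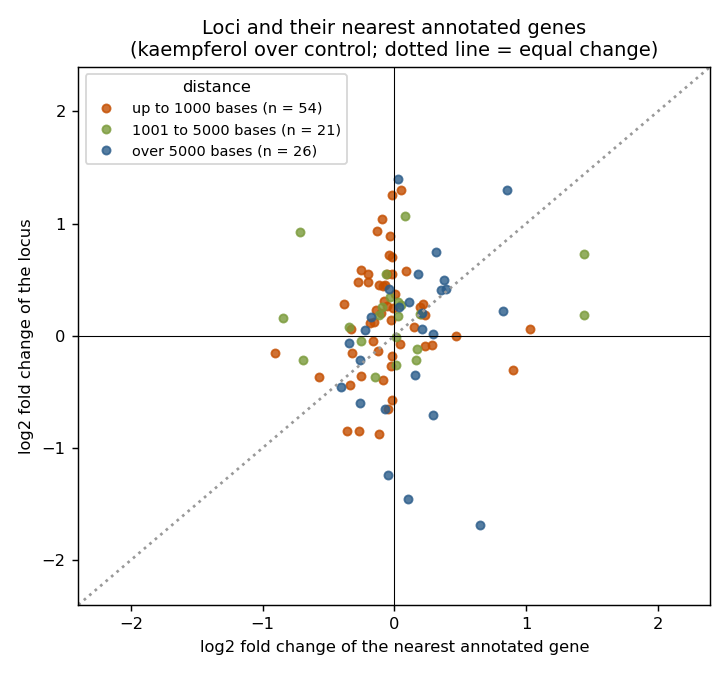
Log2 fold change (kaempferol over control) of 101 loci on the vertical axis against that of the nearest annotated gene on the horizontal axis, coloured by distance; the dotted line is equal change. The points scatter more along the vertical than the horizontal axis and do not follow the dotted line (r = 0.17 at 1 to 1000 bases).

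No locus had its nearest gene among the lists of NRF2 targets, AhR targets, cell cycle genes or muscle genes. In the p53 list there was 1 such gene, Trp53inp1, the gene of a p53-induced nuclear protein, with a log2 fold change of 1.44 (edgeR adjusted p = 5.66e-11). It lies beside 2 loci that overlap each other on opposite strands. At locus 247, on the strand of Trp53inp1 and 1193 bases past its end, there were 12, 17 and 29 counts with kaempferol and 7, 14 and 13 in control (0.73, edgeR adjusted p = 0.22). At locus 259, which resembles a retroviral Gag-Pol polyprotein, there were 106, 122 and 110 counts with kaempferol and 103, 104 and 86 in control (0.18, edgeR adjusted p = 0.42). Neither passed the test. The nearest rows of 6 further loci named above, Gm19276 (locus 122), Gm11726 (62), Gm24830 (243), Gm24350 (223), Gm6594 (154) and Gm24402 (13), had at most 18 counts in any library.

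Other annotation covers some of the loci. In RefSeq GRCm38.p6, 143 of the 392 overlap a gene, 71 of them on the same strand, and 9 of the 18 lower and 6 of the 22 higher loci do. Another 14 overlap a gene of GENCODE M21 that is not a row of the table, and 0 lie over a miRNA hairpin. Within the loci, 18 pairs overlap each other, 15 of them on opposite strands.

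Among loci below the filter, locus 228 and locus 377 had the highest counts in a single library. At locus 228, 1028 bases upstream of Lama5, the gene of laminin alpha-5, there were 1, 2 and 5 counts with kaempferol and 19, 8 and 11 in control, without overlap, while Lama5 was lower (−0.37, edgeR adjusted p = 6.17e-05). At locus 377, with a calmodulin text, there were 21, 6 and 6 counts with kaempferol and 3, 8 and 7 in control, with overlap. Its nearest row is Apln, the gene of the peptide hormone apelin, at 14650 bases, which was lower (−0.96, edgeR adjusted p = 7.02e-06). No test was made for either.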

How the data were processed

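mRNA of 3 kaempferol and 3 control libraries was sequenced by the authors, who deposited whole-number read counts per gene in 1 table. Their processing notes list build mm10 and, with no role for each, DESeq2 1.20.0, featureCounts 1.5.0-p3, StringTie 1.3.3b, HISAT2 2.0.5 and fastp. The deposited transcript length is the length used for RPKM. CPM is relative to a library's counts in the tested rows, multiplied by its TMM factor. Only the filter's level and the shares of library counts are relative to all counts of a library. Strand setting and the treatment of multiply mapped reads are not given in the sources used here.

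Counts were tested with edgeR 4.0.16 in R 4.3.3 (default filter, minimum count 10 and minimum total count 15, TMM factors of 0.985 to 1.012, quasi-likelihood test, Benjamini-Hochberg adjustment over 14558 rows), kaempferol over control. The standard error is that implied by the test statistic. Alternatives were upper-quartile or RLE factors, DESeq2 1.42.0, other filters and thresholds, loci left out of the totals, a replicate block, and 1 library left out at a time.

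Loci named are those with the 8 largest rises and 8 largest falls (adjusted p under 0.05, no overlap between groups, at least 0.5 CPM in the higher group), the 6 most counted, the 3 highest per length and 2 untested ones. Every called locus next to a gene of the NRF2, AhR, p53, cell cycle or muscle lists was to be named, and 0 met this. All other loci in the text were picked after their values were seen. Loci are called by the number that follows the prefix in their deposited identifier, and axis labels of the plot by library give the identifier itself. The members, lists and rules were chosen with earlier results of these data known. Nearest genes were found by the coordinates of the table. No genome sequence was at hand, so windows at the assembled starts and ends were not analysed here, and RefSeq windows were used in their place. The protocol in the labels gives kaempferol to every sample, and the tag of each sample was followed. Genes whose names had turned into dates were read by identifier.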

Additional observations from a re-analysis of the deposited data

How the results depend on the processing

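The counts of 22 higher and 18 lower loci stayed within 1.5 times under both other scalings, DESeq2 (16 higher and 15 lower), both other filters and loci left out of the totals. An adjusted p under 0.01 left 12 higher and 11 lower, a fold change of at least 1.5 left 10 higher, and loci at least 5000 bases from a gene left 10 lower. Fewer loci enter or pass under each of these settings by construction. Leaving out 1 library gave 15 to 18 higher and 13 to 16 lower, and in each of these fits 25 to 31 of the 40 calls were kept. All 40 called loci kept their sign in every fit of 14 that held them, and 33 of the 40 had enough counts for the filter of at least 10 in every library. Upper-quartile factors moved the calls over all rows to 1966 higher and 1424 lower, against 1647 and 1840, and the calls of loci to 23 and 16. Same-numbered libraries did not deviate together (r = −0.02, −0.06 and −0.05). These values show no pairing by number, but so few libraries cannot exclude it. The replicate block gave 18 higher and 16 lower. Within 1000 bases there were 122 loci with any nearest gene, 66 with one on the same strand and 95 with a tested one. Of the values of single named loci under the alternatives, 232 kept their direction and call, 47 lost the call and 1 gained it. Leaving locus 160 out of the summed share of counts is an alternative chosen after seeing the data, as are the counts by class of protein.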

Other observations

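On chromosome Y there were 8 loci, with 260, 284 and 307 counts in the kaempferol libraries and 279, 292 and 227 in the control libraries. In the same libraries the Y-linked genes Ddx3y, Uty, Kdm5d and Eif2s3y, which most male mouse cells express, had 0 counts in all 6. Most of the counts on these loci, 1339 in total, fell on locus 393 (212, 241 and 248 with kaempferol, 231, 231 and 176 in control), which lies 11 bases from the pseudogene Mid1-ps1 near the end of the chromosome and was not called (log2 fold change 0.11, edgeR adjusted p = 0.53). Of the 1570 annotated Y rows only 1 was tested. Where the reads of these loci come from was not tested.

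In the 5 overlapping pairs with both members tested, locus 81 and locus 90 both fell, locus 364 rose while locus 363, on its strand, did not pass the test, and locus 10 with locus 2, locus 10 with locus 3 and locus 259 with locus 247 had no call.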
